A study of Mus musculus with 18 samples.

Results

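The regions described here are peaks of acetylated RNA that lay within a single coding exon of a mouse tumour cell line. They were chosen as the rows of the authors' deposited peak table that carried the class CDS (coding sequence) and a single block, so that no splice junction was crossed. This gave 305 peaks of 1358 in the table, in 244 genes, and another 504 coding peaks had 2 or more blocks. TC1 is a mouse line that the labels describe as fibrosarcoma. It was either unedited (WT) or carried a guide RNA against Nat10 (sgNAT10), and nothing in the labels names a clone, a drug or a control guide. RNA precipitated for acetylation (acRIP-seq) and its input were sequenced in 1 library each for WT and for sgNAT10. Messenger RNA and ribosome-protected fragments (Ribo-seq) were each sequenced in 2 WT and 2 sgNAT10 libraries.

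N4-acetylcytidine is a modified cytidine that NAT10, an acetyltransferase of the nucleolus, places on ribosomal RNA and, with an adaptor protein, on transfer RNA. It has also been mapped in messenger RNA, where its presence in coding sequence has been linked to translation and to mRNA stability. In an immunoprecipitation such as this, RNA fragments bound by an antibody against the modified base are compared with input RNA, and a peak is a stretch where precipitated reads exceed input reads.

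The 4 acRIP-seq libraries gave 1 value per peak and no replicate, so the peak values are a description and were not tested here. Reads recovered from the FPKM values (fragments per kilobase of gene, scaled to the mapped fragments of the library) summed to between 12320135 and 16106823 per mRNA library and between 1542261 and 3192728 per Ribo-seq library. The depth of the acRIP-seq libraries is not given in the sources used here. Nat10 mRNA was 5.36 and 5.30 FPKM in WT and 3.59 and 3.95 FPKM in sgNAT10, so the genotypes did not overlap (log2 fold change -0.41, SE 0.059, limma adjusted p = 0.0027). Nat10 footprints were 11.9 and 17.4 FPKM in WT and 8.33 and 6.60 FPKM in sgNAT10 (limma adjusted p = 0.19). These levels check the labels only in part, since an edit need not lower the mRNA. Of 12 markers of fibroblasts and mesenchyme, 11 were in the mRNA table, and they summed to between 471 and 720 FPKM per library. Vim at 248 to 444 FPKM and Sparc at 95.4 to 168 FPKM made up most of each sum. In each library 8 or 9 of the 11 were at 1 FPKM or more. Col1a1 and Dcn were at most 0.264 and 0.0994 FPKM in any mRNA library. Of 12 epithelial markers 3 were in the mRNA table, and their sum was at most 0.261 FPKM in any mRNA library, while 3 of 11 markers of T cells and macrophages summed to at most 13.7 FPKM.

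Peak sequences were not used here for want of a genome, but a RefSeq table (GRCm38.p6) gives the 50 bases that follow a start site of each gene, and these show where a few of the peaks opened. Of 231 peaks whose gene had an entry, 9 reached into those bases, in 9 genes: Arid1b, Cenpb, Eif3b, Hist1h1c, Hist1h1e, Nufip2, Pcbp1, Serbp1 and Slc3a2. The start of this table can lie inside the gene: counted from the outermost start in the RefSeq gene annotation, the peaks of Nufip2, Arid1b and Slc3a2 began after 391, 814 and 9501 bases. The pair printed here was taken because their window also holds an ATG. Each runs 5′ to 3′ from the first ATG after the start used in that table to the end of the window, and capitals mark the bases inside the peak.
Arid1b: atggagaccgggctgcTCCCCAACCACAA
Hist1h1c: ATGTCTGA
The Arid1b stretch lay on the plus strand at chr17:4995095-4995123, and its last 13 bases belonged to the peak at chr17:4995111-4995291. Arid1b encodes a subunit of the BAF chromatin remodelling complex. The Hist1h1c stretch lay on the plus strand at chr13:23738849-23738856 within the peak at chr13:23738808-23738928, so that this peak took in the ATG and bases before it. Hist1h1c encodes a linker histone.

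The peaks were short, as were those of the whole table. Their length ran from 117 to 1111 bases with a median of 181 bases. The median was also 181 bases over all 1358 peaks, and it was 210 bases for the coding peaks that crossed junctions. In 282 of 305 peaks (92.5%) the length was within 1 base of a multiple of 30, which held for 84.5% of all 1358 peaks. A length of 400 bases was reached by 16 peaks. The longest was a peak of 1111 bases in Plec, the cytoskeletal linker plectin, and the next were 984 bases in Fga, 720 bases in Rps2 and 630 bases in Map1b.

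They lay along the whole gene. Of the 305 peaks, 304 fell in their own gene in the RefSeq annotation of GRCm38.p6, the assembly behind the mm10 build of the submitters' processing notes, and 303 lay wholly inside it. The median peak centre was 56.0% of the way from the gene start to the gene end, introns included. With genes cut into 5 equal stretches, these held 68, 47, 44, 55 and 90 peaks from the start to the end. With only the peak of highest fold enrichment per gene, the first stretch held 63 and the last 61 of 243 genes, so the larger count in the last stretch came from genes with several peaks. Within 1000 bases of the gene start lay 65 peaks and within 1000 bases of the gene end 40. Another coding gene was also overlapped by 4 peaks: those in Fermt3, Pcdhga9, Fgf7 and Nucb1.

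Most genes had a single peak. A single peak was found in 219 genes, and the other 25 genes shared 86 peaks. Ahnak, a giant scaffold protein gene, held 16 peaks over 15787 bases, and together they covered 25.9% of that stretch. Its fold enrichments stayed between 1.17 and 1.91, where fold enrichment is the authors' ratio of precipitate to input in a peak. Plec held 10 peaks over 13684 bases, with folds from 1.16 to 2.61. Apob, the core apolipoprotein of liver and gut lipoproteins, held 9 peaks over 10323 bases, with folds from 10.8 to 28.9. Srrm2, a spliceosome scaffold, and Cdsn, which encodes corneodesmosin of the skin, held 4 peaks each, with folds from 1.23 to 1.57 and from 1.19 to 1.83. Peaks of 1 gene share its transcript and are not independent measurements.

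**Figure D1:**
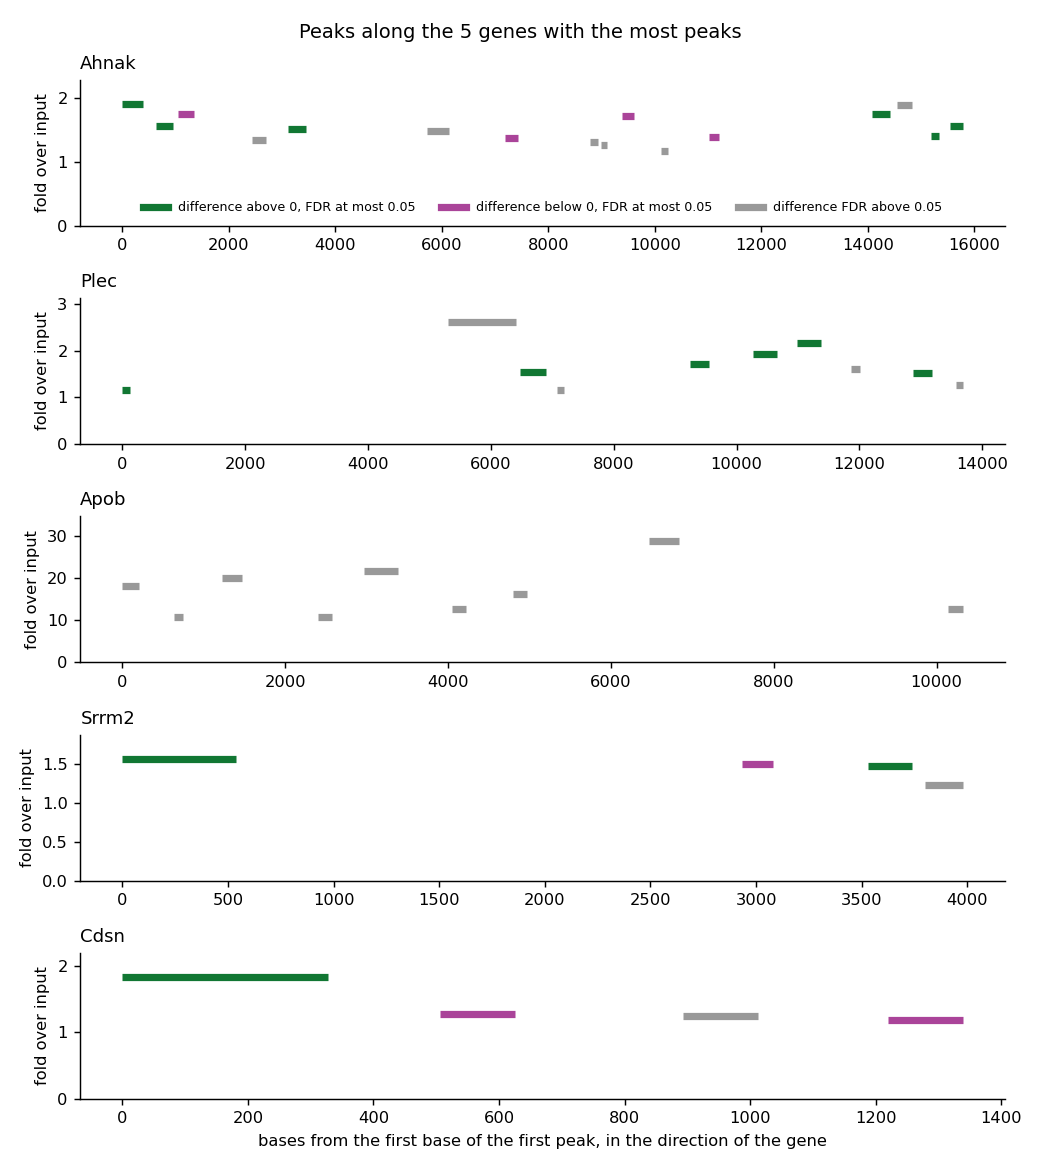
Each bar is a peak in 1 of the 5 genes with the most peaks, drawn by its distance in bases from the first base of the first peak, in the direction of the gene, against the authors' fold enrichment over input (linear axis from 0). Colour gives the sign of the deposited difference where its false discovery rate was at most 0.05; folds stayed under 3 in all of these genes except Apob, where every peak was at 10.8 or more and none was coloured.

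Enrichment over input was low in most peaks. The fold ran from 1.11 to 61.4 with a median of 1.72 and quartiles of 1.42 and 2.32, and 109 peaks (35.7%) reached a fold of 2. The median was 1.63 in the coding peaks that crossed junctions and 1.77 over all 1358 peaks. The authors' false discovery rate (FDR) of the peak was at most 0.05 in 256 of the 305 peaks, which is 83.9% against 84.8% of all peaks in the table. In 6 peaks that cell held a text error in place of the FDR, and these were counted as passing because their deposited p was below that of every other member.

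The fold was highest in genes with little mRNA. In the 23 peaks of genes under 1 FPKM in WT mRNA the median fold was 5.42. Apob held 9 of these 23 peaks, with folds from 10.8 to 28.9, and Cdsn held 4, with folds from 1.19 to 1.83. The median of the 23 thus rests largely on Apob, and it was not computed without that gene. The median fold was 1.87 in 78 peaks of genes from 1 to 10 FPKM, 1.59 in 145 peaks from 10 to 100 FPKM and 1.52 in 49 peaks of genes at 100 FPKM or more. A further 10 peaks lay in genes that the mRNA table does not list, and their median fold was 16.2. Over the 295 peaks with an mRNA value, Spearman's rho between fold and WT mRNA was -0.38, given as a description because peaks share genes and all peaks share the same libraries.

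**Figure D2:**
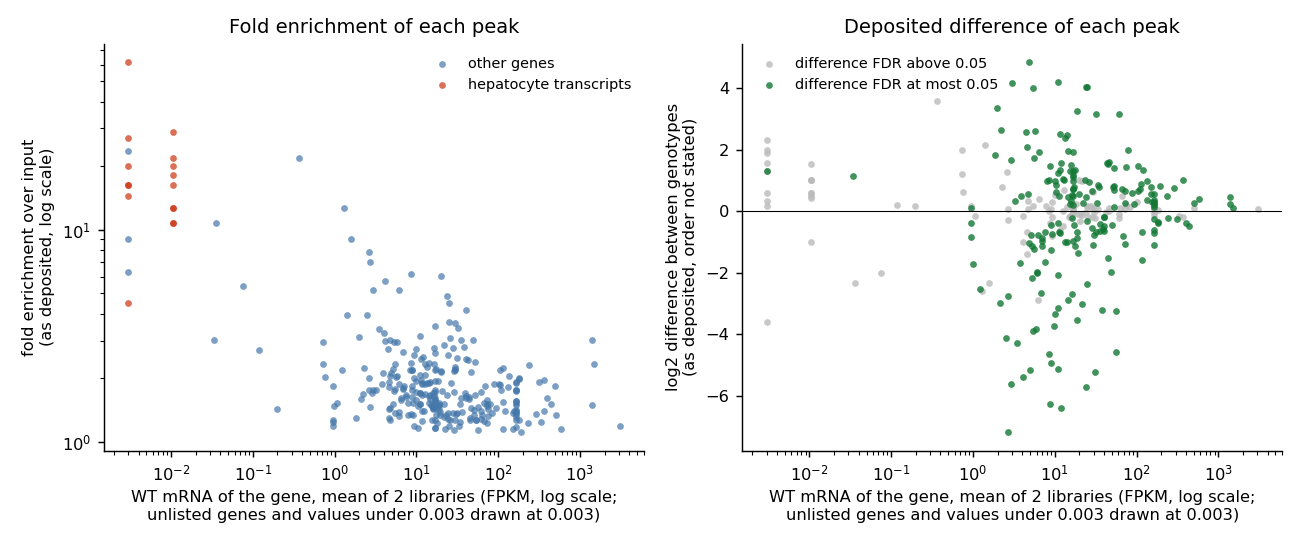
Each point is 1 of the 305 peaks, against the mean WT mRNA level of its gene in FPKM (log axis; genes not in the mRNA table and values under 0.003 are drawn at 0.003). The left plot gives the authors' fold enrichment on a log axis with hepatocyte transcripts in red, and shows folds above 9 mainly at the left edge; the right plot gives the deposited log2 difference, whose green points passed an FDR of 0.05 and lie both above and below 0, up to 4.83.

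A group of 21 peaks in 13 genes stood above all others, with folds of 9.03 or more, while the next peak, in Rnase4, had 7.82. This limit was chosen after the values were seen. Of the 21 peaks, 15 lay in transcripts of hepatocytes: Fga and Fgg, which encode fibrinogen chains, Apob and Apof, which encode apolipoproteins, Hp (haptoglobin), Ehhadh, a peroxisomal enzyme of fatty acid oxidation, and Serpina3k. The highest was the peak in Fga at chr3:83030956-83031939, with a fold of 61.4. Next came Apob at chr12:8012326-8012685 with 28.9 and Hp at chr8:109575247-109575574 with 27.1. The others were Shank1, a scaffold of synapses, at chr7:44353984-44354164 with 23.5, Fermt3, the blood cell kindlin, at chr19:6999255-6999434 with 21.7, and Tmem121, Pcdhga9, Dmxl2 and Hist2h2aa1 with 12.6 or less. All 21 folds were whole multiples, within 0.06 of a step, of a step of 1.81, from 5 to 34 steps. The step was fitted to these same 21 folds, some of which were equal, so the match is a description and was not tested. Of the 21, 10 passed the peak FDR, and 1, in Hist2h2aa1, passed the FDR of the difference between genotypes. Hist2h2aa1 and Hist2h2aa2 are near-identical copies, so the reads of this peak cannot be placed with certainty. The Hist2h2aa1 peak, at chr3:96245556-96245819, also enclosed another member peak, assigned to Gm20634 at chr3:96245584-96245763. That peak had the same deposited peak p and FDR but a fold of 3.01, against 9.03. Whether this stretch belongs to the group above thus depends on which of these peaks is taken.

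Hepatocyte transcripts were nearly absent from the mRNA libraries and present in Ribo-seq. A list of 33 such transcripts, drawn up after these peaks were seen, held 16 of the 305 peaks, in 8 genes. All 33 genes were in the Ribo-seq table and 4 were in the mRNA table. Their summed level was between 1.44 and 2.00 FPKM in the mRNA libraries. In Ribo-seq it was 1064 and 246 FPKM in WT replicates 1 and 2, and 272 and 475 FPKM in sgNAT10 replicates 1 and 2. WT replicate 1 was the highest of the 4 libraries in 33 of 33 genes, with a median ratio of WT replicate 1 to WT replicate 2 of 4.28, against 0.983 over all genes tested. Apob had footprints of 9.31 and 1.99 FPKM in WT and 2.01 and 3.95 FPKM in sgNAT10, while its mRNA was at most 0.022 FPKM in any library. Fga footprints were 31.9 and 7.47 FPKM in WT and 8.10 and 11.9 FPKM in sgNAT10, and Fga was not listed in the mRNA table. In both genes WT replicate 1 was well above the other 3 libraries. None of the 31 list genes tested was called in Ribo-seq by limma, and 0 had an unadjusted p under 0.05. What part other RNA in the acRIP-seq libraries had in these peaks was not tested. Without the 16 peaks the median fold over the 289 others was 1.69, and rho with WT mRNA was -0.32 over 286 peaks. The others still held peaks of genes off the list with little or no listed mRNA beside footprints. Serpina3n had a fold of 6.32, no mRNA value and mean WT footprints of 4.48 FPKM. Apoe had folds of 2.95 and 2.32, with WT means of 0.730 FPKM in mRNA and 24.99 FPKM in Ribo-seq. The 289 peaks are thus not shown to be free of such transcripts.

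**Figure D3:**
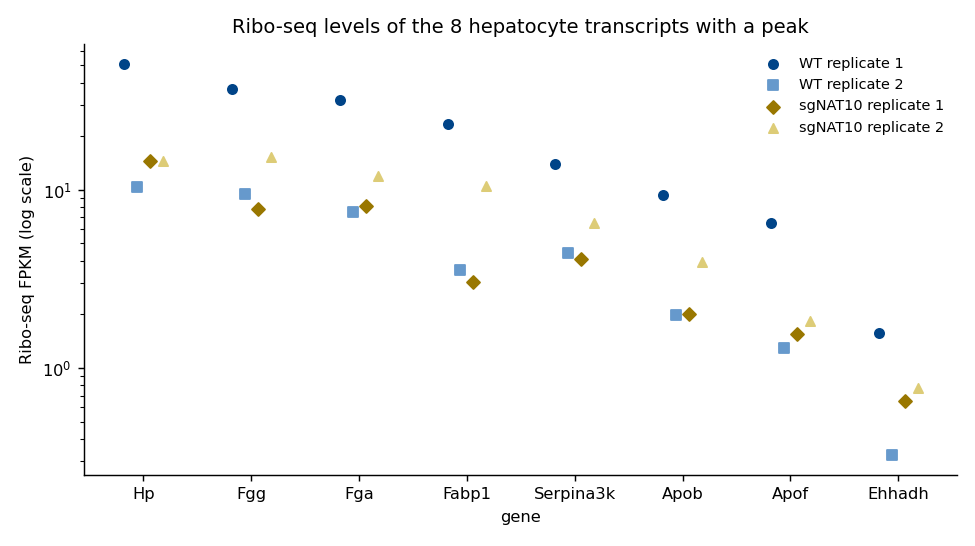
Points give the Ribo-seq level in FPKM (log axis) of the 8 hepatocyte transcripts that held a peak within 1 coding exon, in each of the 4 libraries. In each gene WT replicate 1 is the highest point, for example 9.31 FPKM against 1.99 to 3.95 FPKM in the other libraries for Apob.

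The difference between the genotypes went both ways. The authors' deposited table gives a log2 difference for each peak without saying which genotype is on top or whether input was divided out, so signs are given here as deposited. It was above 0 in 172 of the 305 peaks, a share of 56.4% against 56.8% of all 1358 peaks, and the median was 0.12 in both. At a difference FDR of at most 0.05, 106 peaks were above 0, which is 34.8% of them against 38.0% of all peaks in the table. Another 92 were below 0, which is 30.2% against 27.3% of all peaks. Of those past the FDR, 33 were at -2 or lower, which is 10.8% of the 305 peaks against 7.95% of all peaks, and 18 were at 2 or higher, which is 5.90% against 6.85%. The size of the difference was larger in genes with less mRNA among those with an mRNA of at least 1 FPKM. Its median absolute value was 1.43 in peaks of genes from 1 to 10 FPKM, 0.672 from 10 to 100 FPKM and 0.366 at 100 FPKM or more.

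Peaks far below 0 in the authors' deposited table lay in Kdm6b, Ankrd17, Nufip2, Tlr4 and Arid1b. The peak in Kdm6b, a histone H3 lysine demethylase, at chr11:69405062-69405272 had a difference of -6.40 and a fold of 2.52. Ankrd17 had a difference of -6.25, Nufip2 of -5.69, Tlr4, the receptor for lipopolysaccharide, of -5.61 and Arid1b of -5.37. These 5 peaks passed both the peak FDR and the difference FDR. Their mRNA did not move one way: Kdm6b was 11.6 and 12.4 FPKM in WT and 6.38 and 6.34 FPKM in sgNAT10, a fall, whereas Arid1b was 4.03 and 4.14 FPKM in WT and 6.73 and 6.57 FPKM in sgNAT10, a rise. Ankrd17 (log2 fold change -0.32) and Nufip2 (-0.46) also fell and Tlr4 (0.40) rose.

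The peaks furthest above 0 came from another 6 genes. Zfp574 had a difference of 4.83 in the authors' deposited table at chr7:25081703-25081852, Wwc2 of 4.18, Arhgap32 of 4.15 and Eif2b5, a subunit of the guanine exchange factor of eIF2, of 4.04. Drosha, the nuclease that releases miRNA precursors, had 4.02 and Dohh, the second enzyme of hypusine synthesis on eIF5A, had 4.0. These 6 peaks were between 120 and 150 bases long, against 150 to 329 bases for the 5 peaks far below 0, and 3 of them (Zfp574, Wwc2 and Arhgap32) did not pass the peak FDR. Wwc2 held another peak with a difference of -2.06. Such mixed signs occurred in 13 of the 25 genes with several peaks. Ahnak had 10 peaks above 0 and 6 below 0, and past the difference FDR 6 were above and 4 below. Plec had 6 above and 0 below past the FDR, and its values ran from -0.0086 to 1.31.

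The genes that held these peaks were more highly expressed than most. Their WT mRNA had a median of 16.1 FPKM over 234 genes in the table, against 6.57 FPKM over all genes tested, and their WT footprints had a median of 21.5 FPKM against 7.90 FPKM. The ratio of footprint to mRNA FPKM in WT was 1.36 in the median of 216 of these genes that were tested in both assays, against 1.15 over all 9200 such genes. The quartiles were 0.745 and 2.12 against 0.655 and 1.84, so the distributions overlapped widely. These gaps were not tested.

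In mRNA, 223 of the 244 genes had a mean of at least 1 FPKM and were tested on the log2(FPKM + 1) scale. At a limma adjusted p under 0.05, 105 were higher in sgNAT10 than in WT, where 33.7% of all 11735 genes tested were called higher. Another 71 were lower, where 29.6% of all genes were called lower. The members' shares were thus above the background in the upward direction and near it downward. The background held more genes with little mRNA. At a mean of at least 5 FPKM, 95 of 196 members were higher and 63 lower, against 2769 and 2327 of 7145 genes, and the upward gap was smaller. The split depended on scaling. Under median scaling 88 members were higher and 80 lower, against 3412 and 4097 of all genes. Under quantile normalization 90 members were higher and 75 lower, against 3464 and 3992 of all genes. Without such scaling the members' median log2 fold change was 0.10, against 0.01 over all genes. A change of at least 1 on the log2 scale was called upward in 20 of these genes, where 4.71% of all genes were called, and downward in 8, where 2.53% were called. The mRNA replicates lay close together. At a chi-square limit that counting noise passes in 0.1% of genes, 0.720% of WT genes and 1.37% of sgNAT10 genes differed between replicates. The labels do not say whether replicates were separate cultures, so the p-values measure only the spread between libraries, which may be technical.

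The largest rises were in Fgf7, Cavin2, Thbs2, Vgll3, Cd248 and Cav1. Fgf7, a fibroblast growth factor for epithelia, was 4.53 and 5.01 FPKM in WT and 77.9 and 73.9 FPKM in sgNAT10 (log2 fold change 3.74, SE 0.055, limma adjusted p = 6.8e-06). Its peak overlapped Fam227b, so reads of the 2 genes may mix. Cavin2, a coat protein of caveolae, was 16.2 FPKM in both WT libraries and 202 and 203 FPKM in sgNAT10 (log2 fold change 3.57). Thbs2, the matrix protein thrombospondin-2, was 1.72 and 1.97 FPKM in WT and 22.9 and 21.8 FPKM in sgNAT10 (log2 fold change 3.04). Vgll3, a TEAD cofactor, rose by 3.02, Cd248, a stromal surface receptor, by 2.99, and Cav1, the main caveolin, by 1.76 on that scale. In all 6 genes the sgNAT10 libraries lay far above both WT libraries, and non-overlap in mRNA was a condition of naming them. The deposited differences of their peaks did not share a sign: 1.84 for Thbs2, -4.12 for Vgll3, -4.28 for Cd248, and 0.543 and -0.224 for the peaks of Cavin2, in the authors' deposited table.

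The largest falls included Myc, the only gene of the series title with such a peak. Myc, the transcription factor of growth and ribosome synthesis, was 115 and 117 FPKM in WT and 40.0 and 40.9 FPKM in sgNAT10 (log2 fold change -1.49, SE 0.029, limma adjusted p = 9.4e-06). Its peaks lay at chr15:61987486-61987845 and chr15:61989568-61989747, with folds of 2.22 and 1.54. In the authors' deposited table their differences were -1.57 and -0.66, both past the FDR. Coro2a, an actin-binding coronin, was 6.24 and 6.10 FPKM in WT and 0.036 and 0.038 FPKM in sgNAT10, so it was almost absent there. Its mRNA fell by more than 20-fold, as did that of Dmxl2 and Tmem121, and the peaks of all 3 had differences below 0 (-2.87, -2.32 and -2.58) that did not pass the FDR. Dmxl2 and Tmem121 had a mean under 1 FPKM and were not tested. Rnf213, a large ubiquitin ligase, fell by 1.53, Chd7, a chromatin remodeller, by 1.28, Bst2, which tethers budding virus, by 1.23 and Zfp462 by 1.11 on the log2 scale. The sign of the peak was not fixed by the fall: Rnf213 had a difference of 2.37, while Bst2 had -3.22, Chd7 -3.81 and Zfp462 -4.65 in the authors' deposited table. The Chd7 peak did not pass the peak FDR.

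Over all genes with a peak, the sign of the peak and the mRNA change were set side by side. Of 91 tested genes with a peak past the FDR above 0, 47 were higher and 24 lower in mRNA, with a median log2 fold change of 0.16. Of 80 tested genes with a peak past the FDR below 0, 36 were higher and 29 lower, with a median of 0.07. A gene with peaks past the FDR on both sides of 0, such as Ahnak, was counted in both groups. Among all 223 peak genes tested 105 were higher and 71 lower, and over all genes 33.7% and 29.6% were. Both medians were small beside changes such as that of Myc, and the gap between them was not tested.

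Footprints changed in far fewer of these genes. Of 225 genes tested in Ribo-seq, 12 were higher in sgNAT10 at a limma adjusted p under 0.05, where 1.81% of all 9707 genes were called, and 7 were lower, where 1.28% were called. All 19 were also called in mRNA in the same direction; over all genes 3.09% were called in Ribo-seq in either direction. When any 1 of the 4 Ribo-seq libraries was left out, 0 genes were called, among members and over all genes, while 39 to 58 members and 1205 to 1756 of all 9707 genes had an unadjusted p under 0.05. With all libraries these were 67 members and 20.7% of all genes. Without a mean-variance trend in limma, 3 members were called higher and 2 lower. The replicates spread more here: 34.5% of WT and 21.5% of sgNAT10 genes passed the same chi-square limit. WT replicate 1 was also the library with the most hepatocyte transcripts, whose part in these counts was not tested.

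Fgf7 footprints were 2.54 and 3.61 FPKM in WT and 64.4 and 85.1 FPKM in sgNAT10 (log2 fold change 4.22, SE 0.28, limma adjusted p = 0.0027). Thbs2 footprints were 3.32 and 5.34 FPKM in WT and 79.5 and 83.4 FPKM in sgNAT10 (log2 fold change 3.98). Cavin2 footprints were 19.6 and 20.6 FPKM in WT and 254 and 270 FPKM in sgNAT10 (log2 fold change 3.64). Cd248 (3.17), Lgals3, which encodes galectin-3 (1.99), and Macf1, a linker of actin and microtubules (1.66), also rose. Among the falls, Myc footprints were 281 FPKM in both WT libraries and 80.2 and 126 FPKM in sgNAT10 (log2 fold change -1.47, limma adjusted p = 0.030). Isg20, an interferon-stimulated exonuclease, had 24.4 and 22.6 FPKM in WT and 3.46 and 3.43 FPKM in sgNAT10 (log2 fold change -2.46). Hist1h2bk, a histone H2B gene, had 57.3 and 31.5 FPKM in WT and 2.94 and 4.87 FPKM in sgNAT10 (log2 fold change -3.18), though its mRNA was at most 2.06 FPKM in any library. Nolc1, a nucleolar coiled-body protein (-1.05), Rnf213 (-1.45) and Hsp90aa1, an HSP90 chaperone (-0.61), also fell. Without the trend, the calls of Fgf7, Thbs2, Cavin2 and Isg20 held (limma adjusted p from 0.021 to 0.036) and those of the other 8 genes named here were lost. The calls of Macf1, Rnf213 and Hsp90aa1 were also lost at a pseudocount of 0.1 and with no filter on low values. In these 12 genes the genotypes did not overlap in either assay, but in Ribo-seq this was a condition of naming them and is no result. In Ribo-seq non-overlap held upward for 78 of the 225 members and 25.6% of all genes, and downward for 59 members and 25.6% of all genes. In mRNA it held upward for 118 of the 223 members and 43.3% of all genes, and downward for 80 members and 39.0% of all genes.

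**Figure D4:**
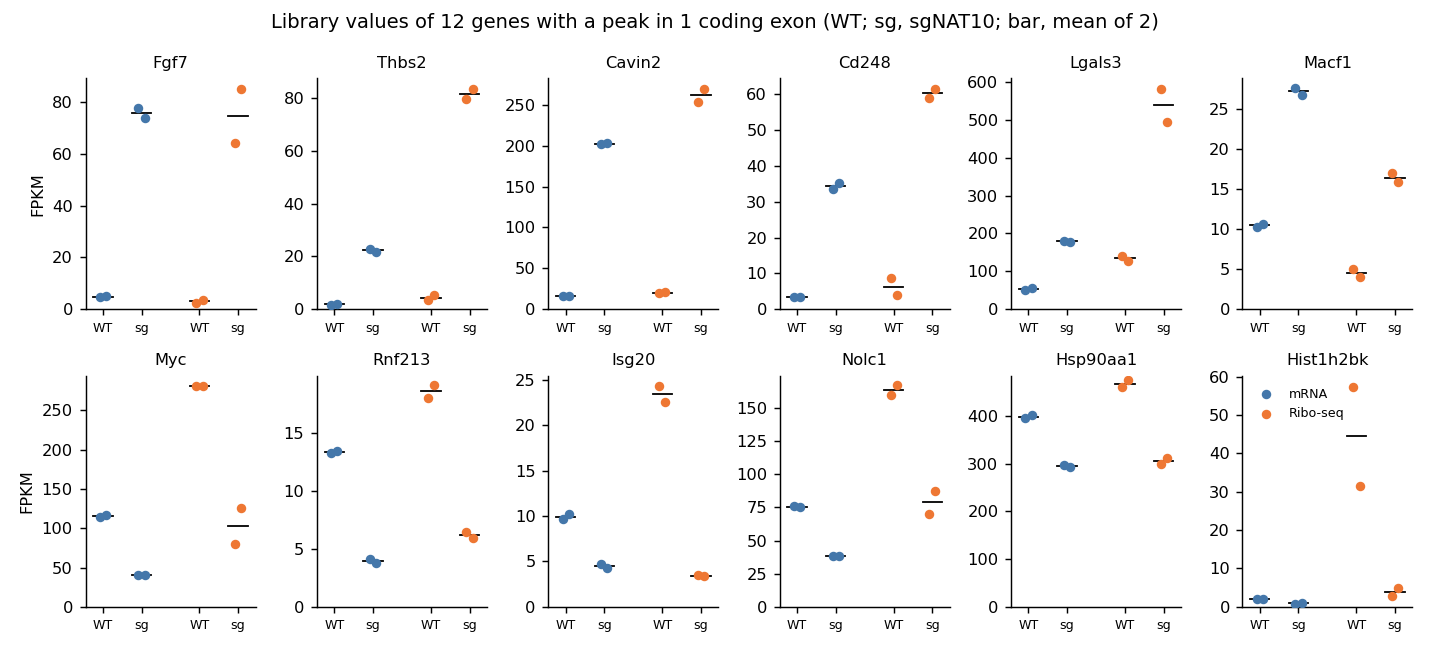
Points are single libraries and bars are the mean of 2, in FPKM on linear axes from 0, for mRNA (blue) and Ribo-seq (orange) in WT and sgNAT10 (sg), for the 6 largest rises and 6 largest falls called in Ribo-seq. WT and sgNAT10 points do not overlap in any of the 12 genes, which in Ribo-seq was a condition of the choice, and Hist1h2bk shows Ribo-seq values far above its mRNA values in WT.

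**Figure D5:**
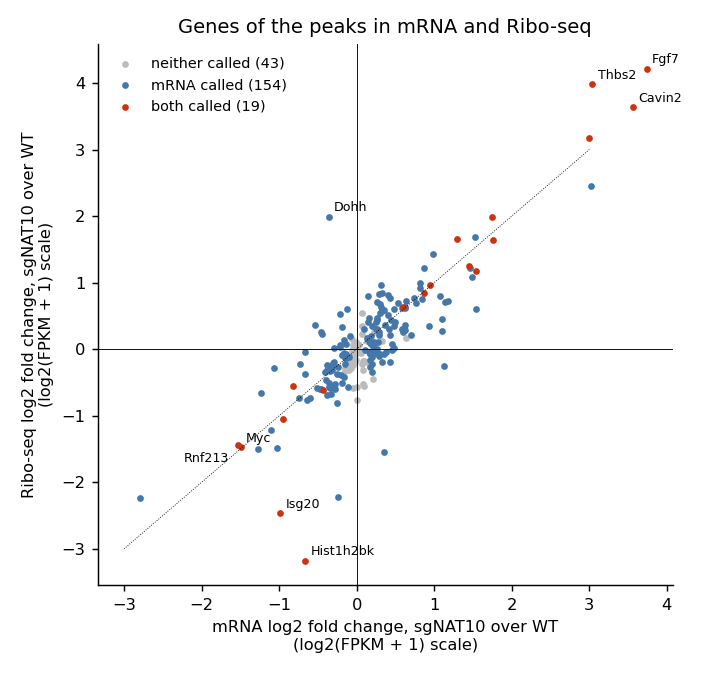
Each point is 1 of the 216 genes tested in both assays, with its mRNA change on the horizontal axis and its Ribo-seq change on the vertical axis, both as log2 fold changes of sgNAT10 over WT on the log2(FPKM + 1) scale; the dotted line marks equal change. The 19 genes called in both assays lie on the same side of 0 in both, 154 were called in mRNA only, and 43 in neither.

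Most mRNA changes were followed by footprints in sign. Of 103 genes called higher in mRNA and tested in both assays, 84 had a positive log2 fold change in Ribo-seq, where 81.3% of all genes called higher did. Of 70 called lower, 57 had a negative one, where 81.9% of all genes called lower did. Translational efficiency, the ratio of footprint to mRNA, was tested as the genotype by assay interaction in 216 of the genes. One gene was called higher, where 0.152% of all 9200 genes were called, and 0 were called lower, where 0.109% were called; 39 members had an unadjusted p under 0.05, where 11.9% of all genes did. The gene was Dohh. Its footprints were listed at 0 in both WT libraries and at 2.60 and 3.40 FPKM in sgNAT10, while its mRNA was 5.39 and 5.50 FPKM in WT and 4.14 and 3.90 FPKM in sgNAT10 (limma adjusted p of the interaction 0.039). With WT at 0 no fold is given, and the call was lost when any mRNA library was left out, with a replicate block (limma adjusted p = 0.22) and with weights per assay (limma adjusted p = 0.091). Of the 6 falls in Ribo-seq named above, Isg20 had the lowest adjusted p of the interaction, with a value of -1.48 (limma adjusted p = 0.053).

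Cytoskeletal and adhesion genes held the most peaks of any list of genes, 40 peaks in 11 genes, with a median fold of 1.56. Past the difference FDR 19 of these peaks were above 0 and 8 below, where 38.0% and 27.3% of all peaks were. Ahnak held 16 of the 40 peaks, with 6 of those above 0 and 4 of those below. Plec held 10, with 6 above and 0 below, and peaks of 1 gene are not independent. In mRNA 5 of the 11 genes were higher and 5 lower, and over the whole list 36 of 62 tested genes were higher and 13 lower. Ahnak was 161 and 170 FPKM in WT and 85.6 and 71.9 FPKM in sgNAT10 (log2 fold change -1.07), so it fell, while Macf1 rose by 1.30. Plec rose by 0.27 (limma adjusted p = 0.012) and Map1b, a microtubule-associated protein, fell by 0.31. Actb, the cytoplasmic actin, had a peak of 477 bases with a fold of 2.32, and its mRNA change of 0.14 was lost under median scaling (0.08). In Ribo-seq, 2 of the 11 genes were called, both higher, and over the list 12 of 62 genes were higher and 1 lower.

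RNA-binding and splicing genes held 18 peaks in 14 genes, with a median fold of 1.54. The difference was past the FDR above 0 in 7 peaks and below 0 in 6, where 38.0% and 27.3% of all peaks were. Of the 14 genes 3 were higher and 6 lower in mRNA, and of 157 list genes tested 24 were higher and 77 lower. The highest folds were 2.78 in Taf15, a FET family protein, 2.37 in Hnrnpu and 2.20 in Rbm8a, a core protein of the exon junction complex. Taf15 fell by 0.17 and Rbm8a by 0.14, and Hnrnpu at 0.08 did not pass the test. Srrm2 fell by 0.26 (limma adjusted p = 0.0081). None of the 14 genes was called in Ribo-seq by limma, and 3 had an unadjusted p under 0.05, and over the list 0 of 154 were called and 24 had such a p.

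Histone genes held 12 peaks in 11 genes, with a median fold of 2.03. The difference was past the FDR above 0 in 7 peaks and below 0 in none, where 38.0% and 27.3% of all peaks were. Of 9 genes tested in mRNA 5 were higher and 1, Hist1h2bk, was lower, and over the list 27 of 51 were higher and 4 lower. Hist1h1c mRNA was 2.52 and 2.79 FPKM in WT and 5.58 and 8.62 FPKM in sgNAT10 (log2 fold change 1.12), while its footprints were 416 and 334 FPKM in WT and 310 and 313 FPKM in sgNAT10. Hist1h2ao, a histone H2A gene with a fold of 2.87, rose in mRNA by 0.42. Histone genes are near-identical copies whose reads the counting may have split, so single genes are uncertain.

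Chromatin regulators held 11 peaks in 11 genes, with a median fold of 1.77. Past the difference FDR 7 were below 0 and 3 above, where 27.3% and 38.0% of all peaks were. In mRNA 5 of the 11 genes were higher and 5 lower. Over the list 17 of 75 were higher and 33 lower. The 3 highest folds were 5.74 in Arid1b, 2.95 in Chd7 and 2.52 in Kdm6b, all with a deposited difference below -3. Of these the Chd7 peak did not pass the peak FDR. Zinc finger genes held 5 peaks with a median fold of 2.57, 3 past the FDR below 0 and 1 above, beside the same shares of all peaks. Zfp462 fell in mRNA, while Zfp574 (0.09) and Zc3h4 (-0.04) did not pass the test. Over the list 91 of 308 genes were higher and 65 lower.

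The lists of ribosomal protein, translation factor and nucleolus genes held 15 peaks. Of these, 4 were in ribosomal protein genes, with folds from 3.02 in Rps2 and 1.92 in Rpl5 to 1.75 in Rps20 among the 3 highest. Rps2 mRNA was 1399 and 1387 FPKM in WT and 1602 and 1641 FPKM in sgNAT10, a rise of 0.22 on the log2 scale. Rpl5 was 313 and 314 FPKM in WT and 198 and 194 FPKM in sgNAT10, a fall of 0.67, and Rps20 fell by 0.33. Of the 4 genes with a peak 1 was higher and 3 were lower, and over the list 5 of 82 ribosomal protein genes were higher and 55 lower. Ribosomal protein genes have many processed pseudogenes, which can share reads with them. Another 6 peaks were in translation factor genes, 5 of them past the FDR above 0 and none below, where 38.0% and 27.3% of all peaks were. Eif3b, a scaffold subunit of initiation factor eIF3, fell in mRNA by 0.36, and Eif2b5 (0.08) and Eif3d (-0.02) did not pass the test. Of the list, 12 of 68 genes were higher and 36 lower. The last 5 peaks were in genes of the nucleolus list, where 3 of 5 genes were lower in mRNA. Nolc1 was 75.9 and 75.0 FPKM in WT and 38.3 and 38.6 FPKM in sgNAT10, and Ncl, nucleolin, was 181 and 182 FPKM in WT and 137 and 138 FPKM in sgNAT10. Rrs1, a ribosome assembly factor, did not pass the test (-0.05). Over the list 2 of 49 genes were higher and 39 lower.

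Matrix genes held 5 peaks with a median fold of 1.30. All 4 tested in mRNA were higher, among them Hspg2, perlecan, with 28.2 and 29.6 FPKM in WT and 39.2 and 35.7 FPKM in sgNAT10. Fn1, fibronectin, also a fibroblast marker, rose from 21.9 and 22.5 FPKM to 68.3 and 64.1 FPKM. Col6a3, a chain of collagen VI with a peak fold of 2.71, was at most 0.141 FPKM in any mRNA library and was not tested. Over the list 22 of 41 genes were higher and 17 lower. Chaperones held 4 peaks, 3 of them past the FDR below 0 and 1 above, where 27.3% and 38.0% of all peaks were. Hsp90aa1 was 396 and 402 FPKM in WT and 298 and 294 FPKM in sgNAT10, and Hspd1, the mitochondrial HSP60, fell by 0.38. Dnajb1, an HSP40 cochaperone with a difference of -3.54, rose by 0.26. Over the list 24 of 68 genes were higher and 24 lower.

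On the list of interferon-stimulated genes, 3 held a peak: Bst2, Isg20 and Adar. Each had a peak past the FDR below 0, where 27.3% of all peaks were, and was lower in mRNA. Rnf213 was not on this list, and its peak had a difference of 2.37 past the FDR while its mRNA fell. Bst2 was 37.7 and 38.6 FPKM in WT and 16.8 and 14.7 FPKM in sgNAT10. Isg20 was 9.69 and 10.2 FPKM in WT and 4.74 and 4.33 FPKM in sgNAT10. Adar, the RNA adenosine deaminase, was 6.29 and 5.99 FPKM in WT and 5.03 and 4.28 FPKM in sgNAT10, and its peak did not pass the peak FDR. Over the list 6 of 22 genes were higher and 13 lower. Among immediate early and stress factors, Atf4, the effector of the integrated stress response, had a fold of 2.29 and an mRNA change of 0.07 that did not pass the test (limma adjusted p = 0.055). Ier2 had a fold of 1.92 and an mRNA change of 0.13 that did not pass either (limma adjusted p = 0.072). Over that list 21 of 45 genes were higher and 14 lower.

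Solute carriers held 3 peaks. Slc30a4, a zinc transporter, was 32.9 and 32.6 FPKM in WT and 93.9 and 98.3 FPKM in sgNAT10, a rise of 1.52 on the log2 scale. Slc6a8, the creatine transporter, rose by 0.27 and Slc3a2, the heavy chain of amino acid exchangers, fell by 0.48. Over the list 35 of 134 genes were higher and 57 lower. Glycolytic genes held 3 peaks, in Eno1 and Hk1. Hk1, a hexokinase, fell by 0.21 (limma adjusted p = 0.027), and Eno1, enolase, did not pass the test (-0.05, with 0.14 under quantile normalization). Over the list 1 of 20 genes was higher and 12 lower. Of the fibroblast markers 5 of 9 tested were higher and 3 lower. No peak lay in an epithelial, T cell or macrophage marker, and of these 0 and 3 genes were tested in mRNA, with 1 called higher.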

How the data were processed

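TC1 cells, WT and sgNAT10, were compared by acRIP-seq, mRNA-seq and Ribo-seq. Members and gene lists were chosen with earlier results of these data known, and the hepatocyte list after these peaks were seen. The submitters' processing notes name FastQC, Trim Galore, Bowtie2, featureCounts and mm10, without saying which file each made. The authors deposited FPKM per gene and library. The authors' tables also hold log2 fold changes and p-values, which were not used for calls. Per the file headers, each peak has a fold enrichment (ratio of precipitate to input), a log2 difference between genotypes, a p-value, and scores that hold log10 p or FDR. The deposited block counts and positions served to choose the members. The peak caller is not given in the sources used here.

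Values were tested as log2(FPKM + 1) in genes averaging 1 FPKM or more, with limma 3.58.1 in R 4.3.3 (trend, Benjamini-Hochberg over all genes tested, threshold 0.05). Values over genes and peaks used pandas 2.3.3. Whole reads were recovered from FPKM ratios in 99.97% of mRNA and 99.99% of Ribo-seq genes and give depth only. Genes were named by a rule: 8 highest folds, 6 extreme differences each way, 5 genes with most peaks, title genes, 3 per list by fold, and the 6 largest called changes each way (4 for translational efficiency) reaching 5 FPKM. Called changes were taken only from genes whose genotypes did not overlap. Genes outside the rule, such as Dmxl2, Tmem121 and Hist1h1c, were picked with their values in view. A result that the rule names is not reported here. The gene lists were ribosomal proteins, translation factors, nucleolus, histones, cytoskeleton, matrix, chaperones, chromatin, zinc finger, immediate early, RNA binding, glycolysis, interferon-stimulated, solute carriers and cell type markers. The script was tested on simulated data. The sgMyc set was not used here.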

Additional observations from a re-analysis of the deposited data

How the results depend on the processing

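The count of peak genes called in mRNA (176) stayed between 142 and 167 without each library and between 158 and 176 under the other settings. The Ribo-seq count (19) was 5 for limma without a trend and 0 without each library, by limma. The translational efficiency count (1) was 2 at a mean of at least 5 FPKM, 2 under median scaling, 2 without a trend, 0 with weights per assay, 0 without each mRNA library, and 11, 18, 3 and 4 without WT replicates 1 and 2 and sgNAT10 replicates 1 and 2 of Ribo-seq. With a replicate block the counts were 165, 15 and 0. Same-numbered replicates of the genotypes did not deviate together within an assay (correlations 0.0079 in mRNA and 0.024 in Ribo-seq), and the numbers were used as names only. With 2 numbers this cannot show that they carry no pairing. Whether mRNA and Ribo-seq libraries of the same number belong together was not checked. Under quantile normalization Eno1 was at 0.14 in mRNA, against -0.05. The cause was not tested in any of these. Of 2236 alternatives over 180 results of named genes, 2105 kept direction and side of the threshold, 106 lost a call, 24 gained one and 1, that of Eno1, changed direction. The median fold of the peaks stayed between 1.67 and 1.82 and the share above 0 between 53.7 and 56.3%. Place in the coding sequence and motif counts were not run, for want of an annotation and a genome. Ribo-seq depth and the single acRIP-seq library of each kind limit what could be called.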
